A study of Rattus with 9 samples.

Results

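Collagens and laminins are the structural chains of the extracellular matrix, and 32 genes that encode them were followed in the thoracic dorsal root ganglia of rats with and without a myocardial infarction. A gene entered when its symbol was Col, a number, a and a number, or Lama, Lamb or Lamc and a number, and when its mean count over 9 libraries was at least 5. Of 17378 genes in the count table, 35 had such a symbol and 32 reached that mean. Lama1 (mean count 5.56) and Col6a4 (5.89) lay just inside, and Col17a1 (3.89), Col26a1 (3.11) and Lamb3 (2.22) just outside. The 32 comprised 10 fibrillar collagen chains, 10 basement membrane chains (3 of collagen IV and 7 laminins) and 12 chains of other collagens. Col4a2, Lama2 and Lamb1 were not analysed here.

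The infarcted group (MI, named CHF in the deposited tables) held 5 SD rats sampled 8 weeks after coronary ligation, and the sham group held 4 SD rats sampled 8 weeks after a sham operation. Each library came from the ganglia of a separate rat. The p-values for MI against sham weigh the difference between groups against how far rats of a group differ. The operated organ is the heart, so the ganglia were sampled at a distance from the injury, and infarct size was not used here. Total counts per library lay between 5656582 and 6861355. The RNA integrity number was 8 to 8.5 in MI and 8.2 to 8.4 in sham libraries. Sensory neuron markers such as Tubb3, Uchl1 and Prph summed to 40531 to 46377 counts scaled to library size (CPM) in MI and 41218 to 43418 CPM in sham libraries.

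Fibrillar collagens assemble from rod-like triple helices into the fibres of connective tissue. In peripheral ganglia and nerves these fibres lie in the epineurium and around the axons in the endoneurium. Collagen IV and laminins build the thin sheets called basement membranes, in which laminin trimers of an alpha, a beta and a gamma chain bind cell surface receptors and collagen IV forms a covalently linked net. Such sheets surround Schwann cells with their axons, satellite glia with their neurons, and the blood vessels of the ganglion.

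Per unit of transcript length, in reads per kilobase of transcript scaled to library size (RPKM), the highest level among the 32 belonged to Col3a1, the chain of collagen III, a partner of collagen I in pliable tissue. Col3a1 stood at 170 ± 56.6 RPKM in MI (SD, n = 5) and 195 ± 23.2 RPKM in sham ganglia (SD, n = 4), rank 214 among all genes. The collagen I chains followed, with Col1a2 at 46.5 ± 14.2 RPKM in MI and 55.9 ± 7.11 RPKM in sham, and Col1a1 at 45.1 ± 20.1 RPKM in MI and 55.2 ± 7.80 RPKM in sham. These 2 levels differed by less than their spread. Col1a1, Col1a2 and Col3a1 together made up 73.6% to 82.9% of the summed RPKM of the fibrillar chains over the MI libraries and 78.7% to 82.1% over the sham libraries. Next by level was Col5a3, a collagen V chain found in Schwann cells, at 32.1 ± 3.29 RPKM in MI and 31.8 ± 1.94 RPKM in sham.

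Among the 10 basement membrane chains followed, the highest levels were those of Lamb2, a laminin beta chain, at 27.3 ± 4.53 RPKM in MI and 27.4 ± 1.29 RPKM in sham, and Lamc1, the most widely used gamma chain, at 24.1 ± 2.67 RPKM in MI and 25.8 ± 1.24 RPKM in sham. Col4a1 stood at 19.0 ± 3.27 RPKM in MI and 21.3 ± 0.721 RPKM in sham. Lama4, the alpha chain of vessel and nerve laminins, stood at 17.0 ± 1.56 RPKM in MI and 16.6 ± 0.685 RPKM in sham. Lama1, Lama5, Lamc3, Col4a3 and Col4a4 were far lower, with Lama5, highest of them on the mean of all libraries, at 1.10 RPKM in MI and 1.06 RPKM in sham. At the low end Lama1, the alpha chain of embryonic basement membranes, averaged 0.0363 RPKM in MI and 0.0704 RPKM in sham.

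Lower mean levels after MI were common among the chains, but none of the differences passed the test. Of the 32 genes, 30 passed the filter on low counts, and Lama1 and Col6a4 did not. In the edgeR likelihood-ratio test 0 of these 30 passed an adjusted p of 0.05, where 0.0171% of all 11711 tested genes did and 0% did so by being lower in MI. The edgeR quasi-likelihood test also called 0 of 30, where it called 0% of all tested genes. At an unadjusted p under 0.05 the likelihood-ratio test had 2 of 30, both lower in MI, where 4.64% of all tested genes had such a p in either direction and 2.27% were lower, and the quasi-likelihood test had 2 of 30, where 5.14% did. In 0 of 30 did the groups separate without overlap, where 1.74% of all tested genes did and 0.905% did by being lower in MI. The fold change was below 1 in 22 of 30 chains and in 49.2% of all tested genes. The median log2 fold change of MI over sham was -0.10 over the 30 and 0.00 over all tested genes. In bulk tissue, fewer cells of a type and less RNA per cell cannot be told apart.

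**Figure D1:**
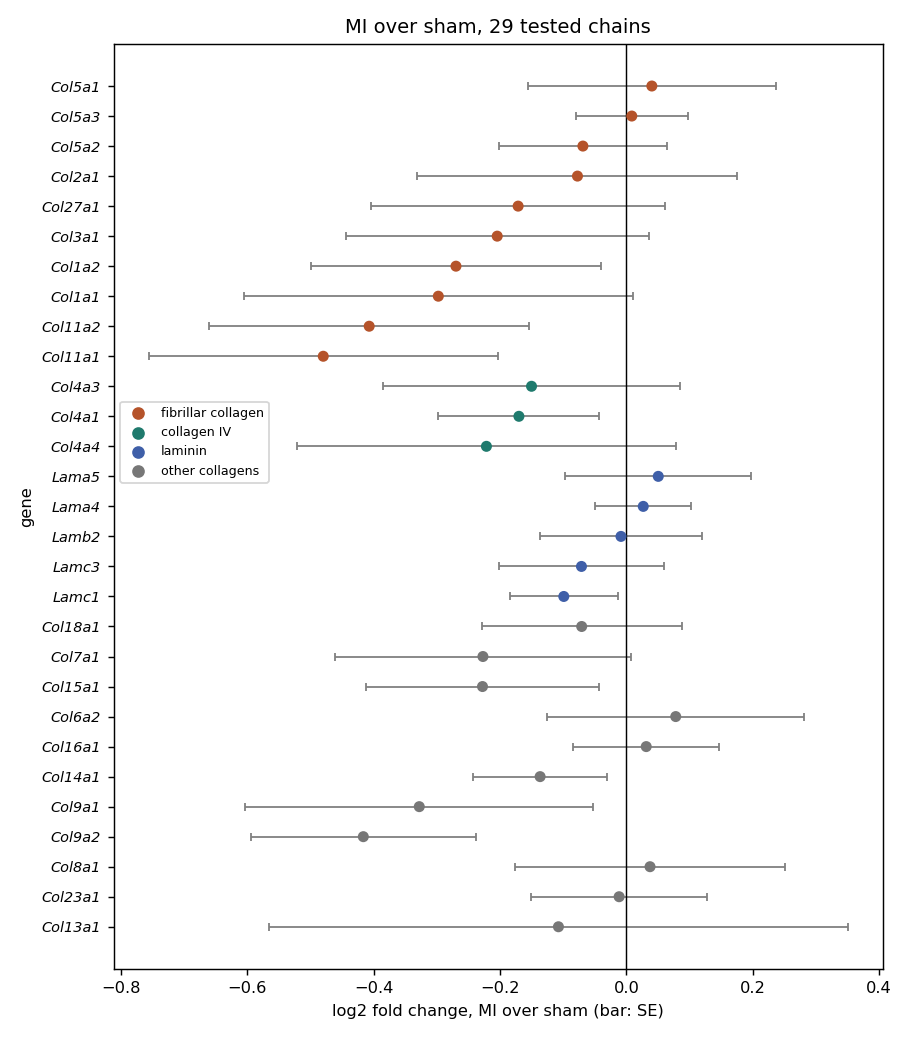
Log2 fold change of MI over sham for 29 tested chain genes, grouped by class, with bars for the SE of the group difference. Of the 29 points, 22 lie left of 0, and the lowest is Col11a1 at -0.48 and the highest Col6a2 at 0.08.

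Of the 10 fibrillar chains, 8 were lower and 2 higher in MI, with a median log2 fold change of -0.19 and a range from -0.48 to 0.04. Col1a1, which encodes the alpha 1 chain of collagen I, stood at 287, 387, 454, 286 and 755 CPM in MI 1 to 5 and at 616, 450, 485 and 582 CPM in Sham 1 to 4. MI 1, MI 2 and MI 4 lay below every sham rat, and MI 5 lay above every sham rat. The means were 434 ± 193 CPM over MI rats (SD, n = 5) and 533 ± 78.7 CPM over sham rats (SD, n = 4), a log2 fold change of -0.30 (SE 0.31, edgeR adjusted p = 1.00).

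Its partner in the collagen I heterotrimer, Col1a2, stood at 551, 664, 731, 471 and 1014 CPM in MI 1 to 5 and at 963, 709, 772 and 865 CPM in Sham 1 to 4. The same MI rats were lowest and highest as for Col1a1. Col1a2 averaged 686 ± 209 CPM over MI rats (SD, n = 5) and 827 ± 111 CPM over sham rats (SD, n = 4), a log2 fold change of -0.27 (SE 0.23, edgeR adjusted p = 1.00). Col3a1 stood at 976, 1321, 1342, 971 and 2060 CPM in MI 1 to 5 and at 1680, 1274, 1512 and 1683 CPM in Sham 1 to 4. MI 1 and MI 4 were below all sham rats, MI 5 was above them, and the log2 fold change was -0.20 (SE 0.24, edgeR adjusted p = 1.00).

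**Figure D2:**
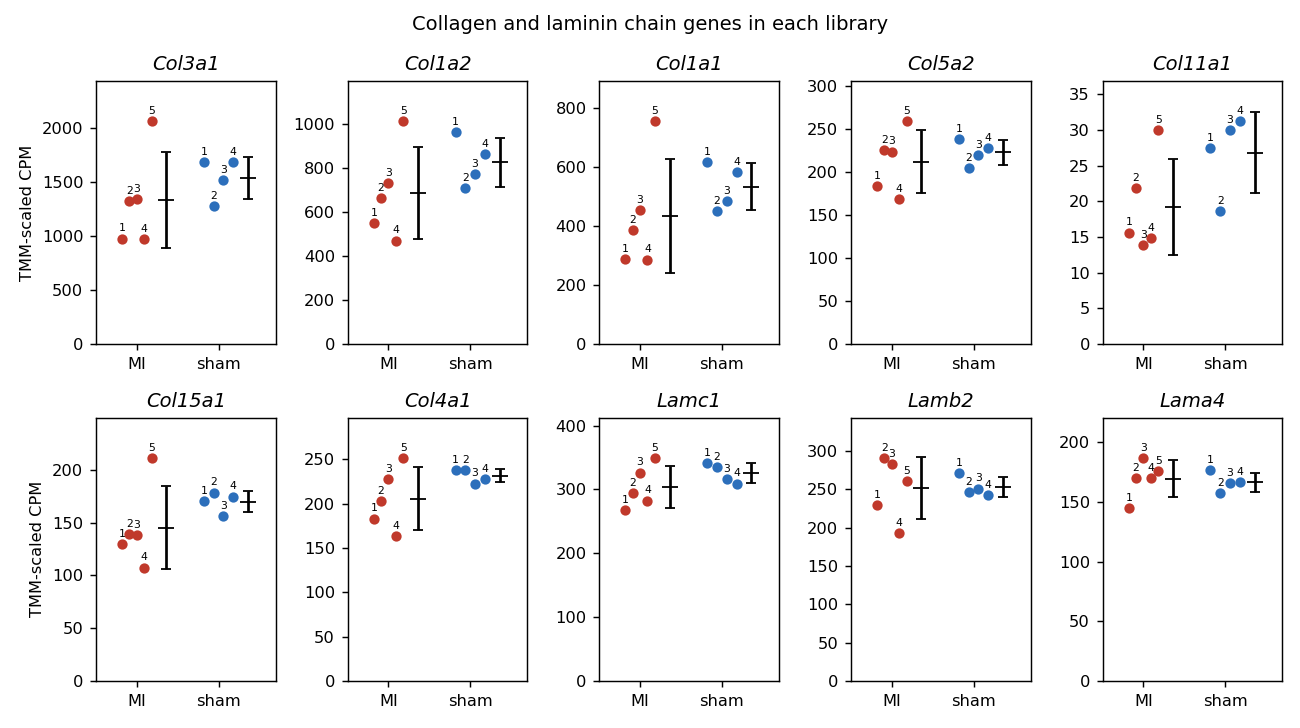
TMM-scaled CPM of 10 chain genes in each library, with MI (red) left of sham (blue), rat numbers beside the points, and mean and SD as a bar beside each group. MI 5 is the highest library for Col1a1 at 755 CPM, and MI 1 (287 CPM) and MI 4 (286 CPM) are the lowest.

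Collagen XI chains nucleate fibrils, mainly in cartilage, and had the lowest fold changes of the fibrillar class. Col11a1 stood at 15.6, 21.8, 13.8, 14.8 and 29.9 CPM in MI 1 to 5 and at 27.4, 18.7, 30.03 and 31.2 CPM in Sham 1 to 4. MI 1, MI 3 and MI 4 lay below all sham rats, and MI 5 lay among them. The log2 fold change was -0.48 (SE 0.28, unadjusted p = 0.0279, edgeR adjusted p = 1.00). Col11a2 stood at 7.402, 11.99, 6.28, 7.83 and 10.1 CPM in MI 1 to 5 and at 10.2, 17.1, 9.80 and 9.24 CPM in Sham 1 to 4. Sham 2 alone was far above the rest, and the log2 fold change of -0.41 (SE 0.25, edgeR adjusted p = 1.00) became -0.16 without Sham 2.

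The collagen V chains, which set the diameter of collagen I fibrils, lay close to 0: Col5a1 had a log2 fold change of 0.04 (SE 0.20), Col5a2 -0.07 (SE 0.13) and Col5a3 0.01 (SE 0.09). Col5a3 was the steadiest fibrillar chain, at 268 to 349 CPM in MI and 295 to 345 CPM in sham libraries. Col2a1, the collagen of cartilage, had -0.08 (SE 0.25) and Col27a1, another cartilage fibrillar chain, had -0.17 (SE 0.23).

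All 3 collagen IV chains measured were lower in MI, with a median log2 fold change of -0.17. Col4a1, the common chain of vascular and nerve basement membranes, stood at 183, 203, 228, 163 and 252 CPM in MI 1 to 5 and at 238, 238, 223 and 228 CPM in Sham 1 to 4. The 4 sham rats lay within a narrow band, 3 MI rats lay below it and MI 5 lay above it. The means were 206 ± 35.2 CPM over MI rats (SD, n = 5) and 232 ± 7.71 CPM over sham rats (SD, n = 4), a log2 fold change of -0.17 (SE 0.13, edgeR adjusted p = 1.00). Col4a3 and Col4a4, chains of the kidney glomerular net whose genes neighbour each other in the RefSeq table (assembly GRCr8), were low. Col4a4 stood at 3.22, 1.97, 1.57, 0.999 and 1.17 CPM in MI 1 to 5 and at 2.32, 1.58, 2.21 and 2.23 CPM in Sham 1 to 4. MI 1 was its highest library and MI 4 its lowest, and the log2 fold change was -0.22 (SE 0.30, edgeR adjusted p = 1.00), from a mean count of 11.9. Without MI 1 it was -0.54 and without MI 4 -0.079.

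Of the 6 laminin chains tested, 3 were higher and 3 lower in MI, with a median log2 fold change of 0.01. Lamc1 stood at 267, 294, 326, 282 and 349 CPM in MI 1 to 5 and at 342, 336, 316 and 309 CPM in Sham 1 to 4. MI 1, MI 2 and MI 4 were below all sham rats and MI 5 was above them, and the log2 fold change was -0.10 (SE 0.09, edgeR adjusted p = 1.00). Lamb2 stood at 230, 291, 283, 193 and 261 CPM in MI 1 to 5 and at 272, 247, 251 and 243 CPM in Sham 1 to 4. The MI values lay on both sides of the sham values, and the log2 fold change was -0.01 (SE 0.13, edgeR adjusted p = 1.00).

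Lama4 stood at 145, 170, 187, 170 and 176 CPM in MI 1 to 5 and at 177, 157, 166 and 166 CPM in Sham 1 to 4. Only MI 1 lay below all sham rats and only MI 3 above them, and the log2 fold change was 0.03 (SE 0.08, edgeR adjusted p = 1.00). Lama5, the alpha chain of many adult basement membranes, stood at 18.7, 22.8, 18.1, 17.2 and 25.5 CPM in MI 1 to 5 and at 21.0, 22.5, 19.1 and 16.6 CPM in Sham 1 to 4. Its groups overlapped throughout, with a log2 fold change of 0.05 (SE 0.15, edgeR adjusted p = 1.00). Lamc3, a less widely used gamma chain, had -0.07 (SE 0.13). Lama1, below the filter, had 3 to 5 counts in MI and 3 to 11 counts in sham libraries.

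Among the other collagens, 8 of 11 tested chains were lower in MI, with a median log2 fold change of -0.11. The smallest p of all 30 chains was that of Col9a2, a fibril-associated collagen of cartilage. Col9a2 stood at 7.24, 10.3, 11.8, 13.5 and 10.7 CPM in MI 1 to 5 and at 16.6, 12.6, 13.7 and 14.3 CPM in Sham 1 to 4. Only MI 4 reached into the sham range, and the log2 fold change was -0.42 (SE 0.18, unadjusted p = 0.0111, edgeR adjusted p = 0.892 by the likelihood-ratio test and 0.920 by the quasi-likelihood test). Col9a1, of the same trimer, had -0.33 (SE 0.28) from a mean count of 10.1.

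Col15a1, a collagen that links basement membranes to the fibres around them, stood at 130, 139, 138, 107 and 211 CPM in MI 1 to 5 and at 171, 179, 156 and 175 CPM in Sham 1 to 4. MI 1 to 4 lay below every sham rat and MI 5 above every sham rat, and the log2 fold change was -0.23 (SE 0.18, edgeR adjusted p = 1.00). Col15a1 is named after its values were seen. Its close relative Col18a1, the source of endostatin, had -0.07 (SE 0.16), and Col7a1, the anchoring fibril chain, -0.23 (SE 0.23) from a mean count of 10. Col6a2, a chain of the beaded filaments between cells, stood at 118, 150, 158, 108 and 210 CPM in MI 1 to 5 and at 155, 121, 152 and 136 CPM in Sham 1 to 4. The MI values spanned the sham values on both sides, and the log2 fold change was 0.08 (SE 0.20, edgeR adjusted p = 1.00).

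Col13a1, a transmembrane collagen, had the widest spread of all 30 chains. It stood at 1.77, 7.88, 6.28, 2.66 and 6.45 CPM in MI 1 to 5 and at 6.95, 5.06, 5.69 and 3.98 CPM in Sham 1 to 4. MI 1 and MI 4 were below all sham rats, and the log2 fold change was -0.11 (SE 0.46, edgeR adjusted p = 1.00). The remaining chains had log2 fold changes of -0.14 for Col14a1 (SE 0.11) and 0.03 for Col16a1 (SE 0.12), both fibril-associated. Col8a1, a short-chain collagen of vessel walls, had 0.04 (SE 0.21), and Col23a1, another transmembrane chain, had -0.01 (SE 0.14).

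Without MI 5, which was the highest of 9 libraries for 16 of 30 chains, 28 of 30 chains were lower in MI. In that fit Col15a1 (log2 -0.40, edgeR adjusted p = 0.00195) and Col1a1 (log2 -0.59, edgeR adjusted p = 0.0422) passed the threshold, 2 of 30 chains, both lower, where 0.0683% of all tested genes did and 0.0427% were lower. MI 5 stands out by the measured levels of these same chains, and leaving it out lowers the MI mean of both. These 2 calls are therefore description and not a test, and neither chain passed with all 9 libraries. Without Sham 1, by contrast, 17 of 30 were lower and 0 passed. Over the 9 fits that left out 1 library, the median log2 fold change of the fibrillar chains ranged from -0.33 without MI 5 to -0.09 without MI 1. The log2 fold change of Col1a1 ranged from -0.59 without MI 5 to -0.18 without MI 4. Between the same fits Col1a2 ranged from -0.45 to -0.16, Col3a1 from -0.42 to -0.11 and Col4a1 from -0.25 to -0.097. Lamc1 ranged from -0.15 without MI 5 to -0.057 without MI 1. The median of the basement membrane chains ranged from -0.11 without Sham 3 to -0.03 without Sham 4.

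For MI against sham, the authors' deposited table lists 24 of the 32 chains among 8000 genes, whose largest p is 0.712. Of these chains 3, all fibrillar and all lower in MI, are past an adjusted p of 0.05 in the authors' deposited table, where 0.75% of the genes listed are and 0.325% are so by being lower. These are Col1a1 (fold 0.813, adjusted p = 0.00307), Col1a2 (fold 0.8288, adjusted p = 0.0185) and Col11a1 (fold 0.719, adjusted p = 0.0271) in the authors' deposited table. A deposited note gives a dispersion, the squared between-animal variation, of 0.006. The dispersions estimated here for each gene were 0.0569 for Col1a1, 0.0318 for Col1a2 and 0.0443 for Col11a1, against a median of 0.00586 over all tested genes. With the dispersion fixed at 0.006, the likelihood-ratio test called Col1a1 (edgeR adjusted p = 0.0245) and Col11a1 (edgeR adjusted p = 0.00465), 2 of 30 chains, both lower, where 0.606% of all tested genes were called and 0.213% were lower. With 1 common dispersion for all genes, estimated here as 0.00641, the same chains were called, where 0.598% of all tested genes were and 0.213% were lower. With the dispersion at 0.006, Col1a2 had an edgeR adjusted p of 0.0622, so that fit did not reproduce its call in the authors' deposited table. The order differed too, since Col11a1 had a smaller adjusted p than Col1a1 here and a larger one there. What sets the authors' calls apart was not tested.

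The fibrillar chains followed here outweighed the basement membrane chains followed here in every library. Col4a2, Lama2 and Lamb1, which were not analysed, are missing from the basement membrane sums. Missing too are Lamb3, below the mean count, and Col4a5, Col4a6 and Lama3, which are not among the 35 symbols found. The sums and ratios therefore hold for the followed chains only, not for all basement membrane chains. The summed RPKM of the 10 fibrillar chains was 250, 329, 338, 249 and 493 in MI 1 to 5 and 418, 328, 364 and 403 in Sham 1 to 4. The 10 basement membrane chains summed to 82.1, 96.1, 100.1, 78.2 and 101.1 RPKM in MI 1 to 5 and to 100.1, 95.8, 93.5 and 92.1 RPKM in Sham 1 to 4. The ratio of the sums was 3.04, 3.43, 3.38, 3.19 and 4.88 in MI 1 to 5 and 4.17, 3.42, 3.89 and 4.38 in Sham 1 to 4. MI 5 had the highest ratio and MI 1 the lowest, so the sham ratios lay inside the range of the MI ratios. The median log2 fold change was -0.19 for fibrillar and -0.07 for basement membrane chains, a difference of -0.12. Leaving out 1 library moved this difference between -0.26 without MI 5 and -0.047 without MI 1. In mean centred log2 CPM, fibrillar minus basement membrane chains gave -0.36, -0.06, -0.18, -0.06 and 0.30 in MI 1 to 5 and 0.10, 0.02, 0.07 and 0.17 in Sham 1 to 4. MI 1 to 4 lay below all sham rats in this difference and MI 5 above them. No test is given for these class values, because the classes were chosen with earlier results of these data known.

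Fibrillar chains varied widely between rats of the same group. The biological coefficient of variation (BCV), the between-animal variation left after counting noise, had a median of 17.9% over the 9 fibrillar chains and 10.2% over the 5 basement membrane chains with a mean log2 CPM of at least 4. Over all 8028 tested genes above that level the median was 6.41%. Col1a1 had a BCV of 23.8%, above 99.3% of those genes, although counting noise at its mean count of 2992 amounts to 1.83%. Col3a1 had 18.8% and Col1a2 17.8%, above 98.6% and 98.4% of those genes. At the other end were Lama4 with 6.75%, above 56.4%, Lamc1 with 7.65%, above 70.1%, and Col5a3 with 7.80%, above 72.0% of those genes. For Col13a1 (BCV 32.4%) and Col4a4 (BCV 20.7%) counting noise was also large, at 17.6% and 29.0% of the mean.

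**Figure D3:**
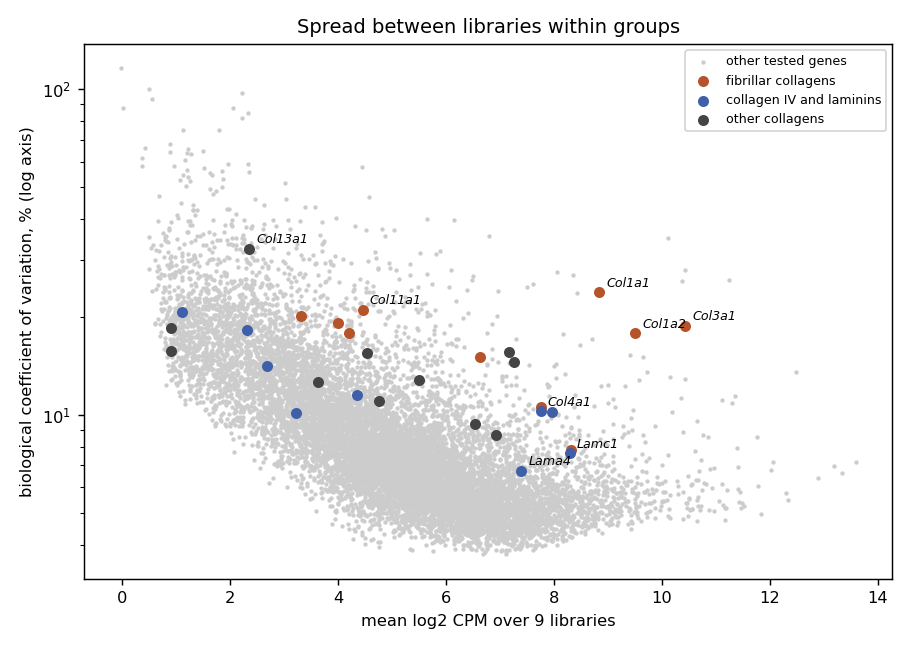
Biological coefficient of variation within groups (log axis) against mean log2 CPM for all tested genes (grey), fibrillar collagens (brown), collagen IV and laminins (blue) and other collagens (black). Col1a1 (23.8%), Col3a1 (18.8%) and Col1a2 (17.8%) lie above 99.3%, 98.6% and 98.4% of tested genes with a mean log2 CPM of at least 4. Lama4 (6.75%) lies within the cloud.

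The spread was wider among MI than among sham rats for 25 of 30 chains, 83.3%, where this held for 57.7% of all tested genes. The median SD of log2 CPM over the 30 chains was 0.32 in MI and 0.19 in sham, and over all tested genes it was 0.13 in MI and 0.12 in sham. For Col1a1 the coefficient of variation was 44.5% in MI and 14.8% in sham, and for Col4a1 it was 17.1% in MI and 3.33% in sham. The difference in spread between the groups was not tested.

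The high and low values were mostly those of the same few libraries. MI 5 was above the median of the 9 libraries for 26 of 30 chains and Sham 1 for 28 of 30. MI 1 was above it for 2 of 30 and MI 4 for 6 of 30, and the other 5 libraries for 10 to 13 of 30. MI 4 was the lowest library for 11 chains and MI 1 for 8. All 10 fibrillar chains were above their median in Sham 1 and none in MI 1. All 32 genes together took 0.370% to 0.651% of the counts in MI libraries and 0.478% to 0.577% in sham libraries.

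**Figure D4:**
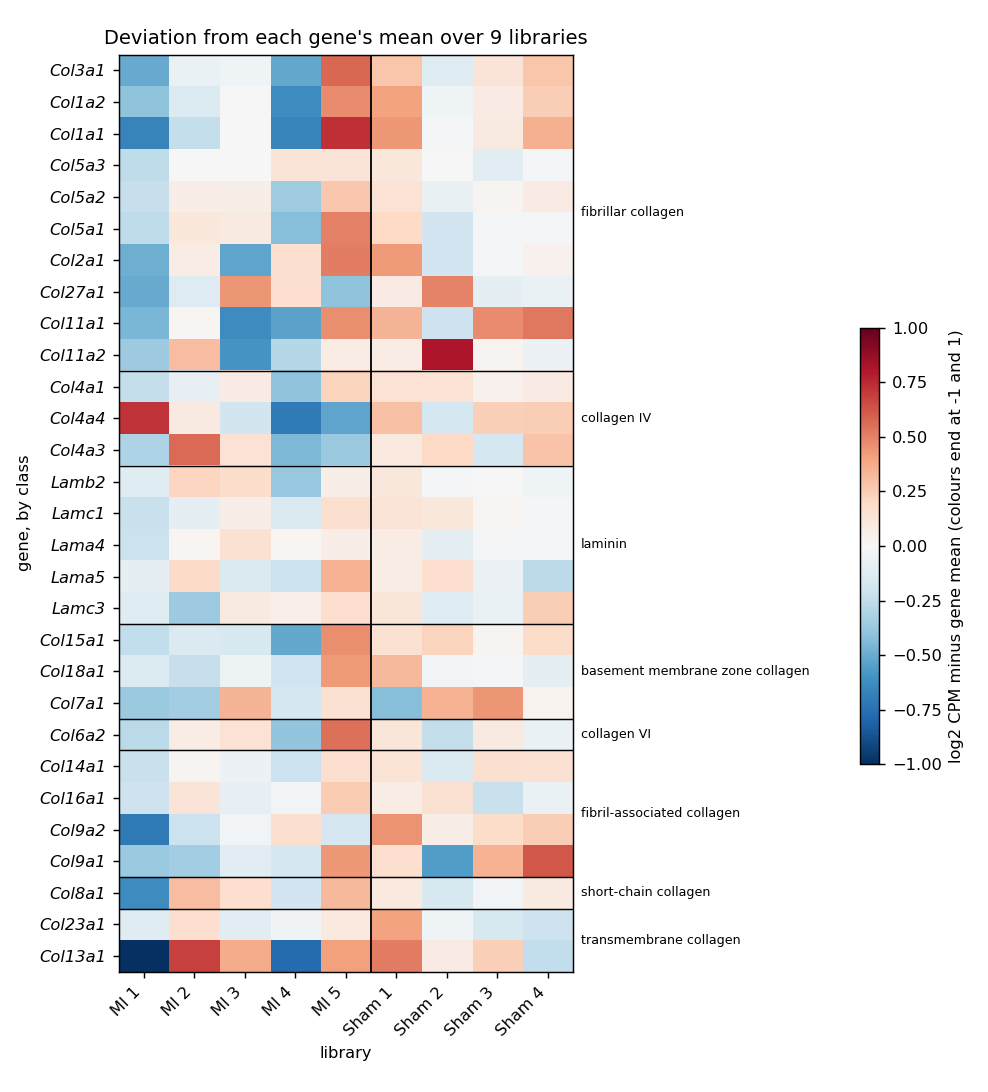
Log2 CPM minus the gene's mean over 9 libraries for 29 tested chains (rows, by class) in MI 1 to 5 (left) and Sham 1 to 4 (right). Red marks MI 5 and Sham 1 for most chains, which are above the median for 26 and 28 of 30, and blue marks MI 1 and MI 4, above it for 2 and 6 of 30.

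Col1a1 moved together with most other abundant chains over the 9 libraries, and with a gene of collagen folding. Log2 CPM of Col1a1 was related to 16 genes by exact permutation tests over all pairings, two-sided. With Col1a2 Pearson's r was 0.98 (Spearman's rho 1.00, exact permutation p = 2.76e-06 and 5.51e-06, adjusted p = 4.41e-05 and 8.82e-05), and 0.99 without MI 4 and MI 5, the libraries farthest from the median of Col1a1. With Col3a1 r was 0.98 (rho 0.97, exact permutation p = 3.03e-05 and 1.65e-04, adjusted p = 2.43e-04 and 0.00132), and 0.97 without those libraries. With Col4a1 r was 0.91 (rho 0.88, exact permutation p = 2.67e-04 and 0.00308, adjusted p = 0.00143 and 0.00984), and 0.88 without them. With Lamc1 r was 0.88 (rho 0.82, exact permutation p = 0.00226 and 0.0108, adjusted p = 0.00517 and 0.0276), and 0.81 without them. MI 1, almost as low in Col1a1 as MI 4 (287 against 286 CPM), stayed in, so the r without MI 4 and MI 5 still includes a low extreme.

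Lama4 (r 0.50, rho 0.40, exact permutation p = 0.17 and 0.291, adjusted p = 0.21 and 0.358, r 0.63 without MI 4 and MI 5) did not pass. Neither did Lamb2 (r 0.53, rho 0.40, exact permutation p = 0.138 and 0.291, adjusted p = 0.184 and 0.358, r 0.24 without them) nor Col5a3 (r 0.46, rho 0.23, exact permutation p = 0.218 and 0.552, adjusted p = 0.25 and 0.588, r 0.79 without them). Col5a1, Col5a2, Col6a2 and Col15a1 had r of 0.85, 0.92, 0.81 and 0.91, with exact permutation adjusted p from 0.00235 to 0.0130 for r and from 0.00984 to 0.0276 for rho (rho 0.78, 0.88, 0.80 and 0.78). Without MI 4 and MI 5 these r were 0.62, 0.84, 0.53 and 0.79, so that of Col6a2 rested most on those libraries. All genes of a library share its RNA, tissue and depth. How many of all tested genes follow Col1a1 as closely was not counted, so these relations are not shown to be particular to the chains.

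**Figure D5:**
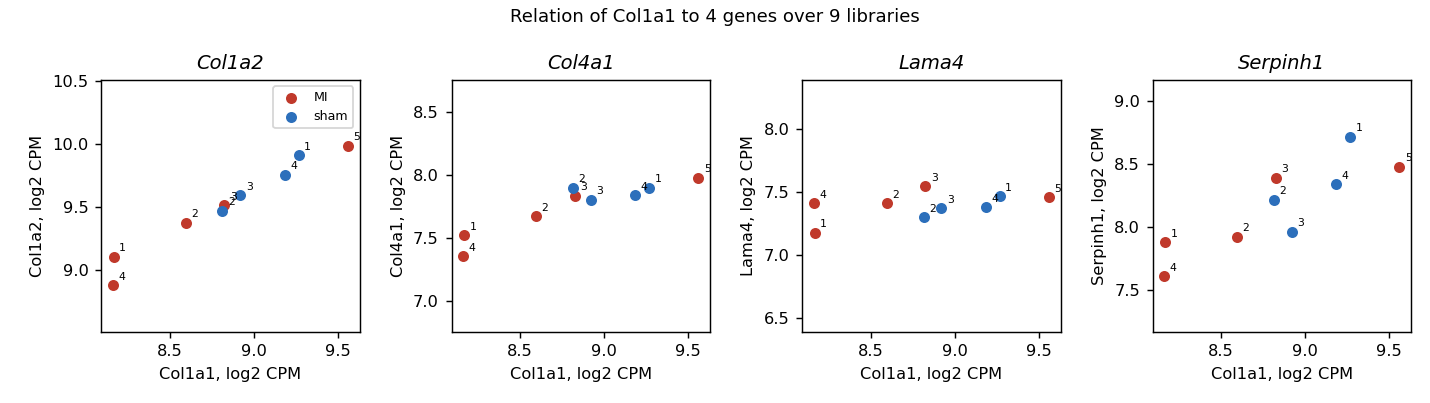
Log2 CPM of Col1a1 (x axis) against Col1a2, Col4a1, Lama4 and the collagen chaperone gene Serpinh1 (y axes of equal span) in 5 MI (red) and 4 sham (blue) libraries, numbered by rat. The points of Col1a2 (r 0.98), Col4a1 (r 0.91) and Serpinh1 (r 0.85) climb with Col1a1, and those of Lama4 (r 0.50) scatter.

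Of the genes outside the family, Serpinh1, the collagen chaperone HSP47, followed Col1a1 with r 0.85 (rho 0.90, exact permutation adjusted p = 0.00715 and 0.00984, r 0.78 without MI 4 and MI 5). Pdgfra, a fibroblast receptor, had r 0.70 (rho 0.68, exact permutation adjusted p = 0.0537 and 0.0732, r 0.33 without them). Dcn, the fibroblast proteoglycan decorin, had r 0.21 (rho 0.37, exact permutation adjusted p = 0.621 and 0.384, r -0.07 without them). Pecam1, an endothelial adhesion molecule, had r -0.01 (rho -0.08, exact permutation adjusted p = 0.986 and 0.843, r -0.60 without them). With the mean of each group removed, r over all libraries was 0.82 for Serpinh1, 0.83 for Pdgfra, 0.32 for Dcn and 0.22 for Pecam1. That r was not tested, and it includes MI 4 and MI 5.

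Like the summed chains, meningeal and Schwann cell markers were highest in summed CPM in MI 5 and Sham 1 of their groups. So were satellite glia markers (7102 and 7139 CPM) and bone and cartilage markers (1761 and 1446 CPM). The summed CPM of fibroblast markers was not. The osteopontin gene Spp1 alone held 1493 CPM of the bone and cartilage sum in MI 5 and 1165 CPM in Sham 1. In mean centred log2 CPM, which weights each tested marker equally, satellite glia markers stood at 0.056 in MI 4 and 0.055 in MI 5. Meningeal, Schwann cell, and bone and cartilage markers kept MI 5 and Sham 1 highest of their groups on that measure. The 10 meningeal markers summed to 2401 CPM in MI 5 and 752 to 1823 CPM in the other MI libraries, and to 2370 CPM in Sham 1 and 848 to 1227 CPM in the other sham libraries. Of these markers 9 were tested, 7 were higher and 2 lower in MI (median log2 fold change 0.10), and none was at 0 in all libraries. Smallest in p among them were Bmp6 at log2 0.28 (SE 0.17) and Dpp4 at -0.10 (SE 0.19). The 16 Schwann cell markers summed to 14215 to 20169 CPM in MI, highest in MI 5 and lowest in MI 1, and to 16155 to 19397 CPM in sham, highest in Sham 1. Of these 2 were higher and 14 lower in MI, with a median log2 fold change of -0.09, S100b at log2 0.10 (SE 0.05) and Cnp, a myelin enzyme, at -0.16 (SE 0.08). Fibroblast markers summed to 4180 to 5879 CPM in MI, lowest in MI 4 and highest in MI 2, and to 4878 to 5169 CPM in sham, highest in Sham 3, with 9 of 11 tested higher in MI (median 0.11) and Tcf21 at 0 in all libraries. In mean centred log2 CPM, which weights each tested fibroblast marker equally, MI 5 was instead the highest library (0.33) and MI 4 the lowest (-0.38). Among sham libraries Sham 3 (0.085) and Sham 1 (0.083) were highest on that measure. Scara5 had log2 0.21 (SE 0.15) and Lum -0.12 (SE 0.13). Over all 12 marker lists, 0 of 137 tested entries passed an adjusted p of 0.05 in either edgeR test, where 0.0171% of all tested genes did by the likelihood-ratio test and 0% by the quasi-likelihood test. An unadjusted p under 0.05 was found for 20 of the 137 (14.6%) by the likelihood-ratio test, against 4.64% of all tested genes, and for 16 (11.7%) by the quasi-likelihood test, against 5.14%. Of the 20, 7 were pericyte and smooth muscle markers and 5 were macrophage markers. These lists, and those of matrix genes below, were chosen with earlier results of these data known, so such shares are description and not a test. The part of these tissues in the values of the chain genes was not tested.

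Of the other marker lists, those of pericytes and smooth muscle and of macrophages held the most genes with a small unadjusted p. Perineurial markers summed to 778 to 1163 CPM in MI, lowest in MI 5, and to 890 to 1043 CPM in sham, with 5 of 7 tested higher (median log2 fold change 0.05) and Lypd2 at 0 in all libraries. Krt19 had log2 -0.31 (SE 0.22). Endothelial markers summed to 384 to 573 CPM in MI and 375 to 539 CPM in sham, with 10 of 14 higher (median 0.10), Erg at log2 0.42 (SE 0.15) and Kdr at -0.15 (SE 0.15). Pericyte and smooth muscle markers summed to 369 to 564 CPM in MI and 326 to 388 CPM in sham, with 12 of 14 higher (median 0.34) and 7 of 14 at an unadjusted p under 0.05. Myh11, the smooth muscle myosin, had log2 0.65 (SE 0.19, edgeR adjusted p = 0.0635 by the likelihood-ratio test and 0.920 by the quasi-likelihood test). Every MI rat lay above every sham rat for Myh11, where the groups did not overlap, in either direction, for 1.74% of all tested genes. Rgs5 had -0.09 (SE 0.13).

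Satellite glia markers summed to 6318 to 7102 CPM in MI and 6457 to 7139 CPM in sham, with 3 of 11 higher (median -0.05), Slc1a3 at log2 0.13 (SE 0.09) and Fasn at -0.20 (SE 0.05). Macrophage markers summed to 545 to 668 CPM in MI and 476 to 636 CPM in sham, with 12 of 15 higher (median 0.20), 5 of 15 at an unadjusted p under 0.05, Siglec1 at log2 0.65 (SE 0.23) and Tyrobp at -0.11 (SE 0.16). Bone and cartilage markers, Col2a1 among them, summed to 1226 to 1761 CPM in MI and 1178 to 1446 CPM in sham, with 5 of 10 tested higher (median -0.03). Spp1, or osteopontin, had log2 0.19 (SE 0.12) and Lect1 -0.23 (SE 0.14). Skeletal muscle markers summed to 128 CPM in MI 3 and 140 CPM in Sham 3. They summed to 21.9 to 36.5 CPM in the other MI libraries and 31.8 to 60.5 CPM in the other sham libraries. Of 10 tested, 0 were higher (median -0.35). Myh4 had log2 -1.09 (SE 0.80), with 12.8 CPM in Sham 3 and at most 3.50 CPM in any other library. Adipocyte markers summed to 13.5 to 34.2 CPM in MI and 9.64 to 29.4 CPM in sham, with 4 of 4 tested higher (median 0.62) and Cfd at log2 0.50 (SE 0.19). Sensory neuron markers had 7 of 16 higher (median -0.01), with Isl1 at log2 0.08 (SE 0.06) and Rbfox3 at -0.21 (SE 0.11).

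The genes that make, hold and cut collagen were given the same comparison, and 0 of 123 tested entries in 6 lists passed an adjusted p of 0.05 in either edgeR test, where 0.0171% of all tested genes did by the likelihood-ratio and 0% by the quasi-likelihood test. At an unadjusted p under 0.05 the likelihood-ratio test had 8 of them (6.50%), against 4.64% of all tested genes, and the quasi-likelihood test had 7 (5.69%), against 5.14%. Of 28 tested genes of collagen processing and cross-linking, 12 were higher and 16 lower in MI, with a median log2 fold change of -0.04. Smallest in p were P3h2, a prolyl hydroxylase (log2 0.21, SE 0.10, edgeR adjusted p = 1.00), and Plod1, a lysyl hydroxylase (log2 -0.16, SE 0.05, edgeR adjusted p = 0.903). Of 16 receptors, 9 were higher and 7 lower (median 0.02), with Itga1, a collagen-binding integrin chain, at log2 0.07 (SE 0.15) and Bcam, a laminin receptor, at -0.11 (SE 0.06). Of 12 other basement membrane components, 6 were higher and 6 lower (median 0.01). Smoc1 had log2 0.65 (SE 0.43, edgeR adjusted p = 1.00), and Nid2, which bridges laminin and collagen IV, had -0.20 (SE 0.08, edgeR adjusted p = 0.896).

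Of 22 genes of matrix degradation, 10 were higher and 12 lower (median -0.01). Plau, the urokinase plasminogen activator, averaged 10.04 ± 2.12 CPM over MI rats (SD, n = 5) and 6.54 ± 0.966 CPM over sham rats (SD, n = 4), a log2 fold change of 0.62 (SE 0.17, edgeR adjusted p = 0.442). Mmp13, a collagenase, averaged 1.79 ± 0.544 CPM over MI rats (SD, n = 5) and 3.45 ± 1.96 CPM over sham rats (SD, n = 4), a log2 fold change of -0.95 (SE 0.41, edgeR adjusted p = 0.90). Of 18 regulators of matrix genes, 6 were higher and 12 lower (median -0.05), with Cyr61, a matricellular growth regulator, at log2 0.32 (SE 0.30) and Ltbp3, a binding protein of latent TGF-beta, at -0.16 (SE 0.07). Of 27 other interstitial matrix genes, 12 were higher and 15 lower (median -0.02), with Prelp at log2 0.10 (SE 0.14) and Mfap4, a microfibril protein, at -0.30 (SE 0.35).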

How the data were processed

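Per the series' design text, STAR 2.3.0 placed cutadapt-trimmed reads on rn6 and genes were summarised with Partek 6.6 annotations, after bcl2fastq 2.16.0.10. The deposited counts are whole reads per gene, which the authors rounded from deposited estimated counts, per the file headers and values. The deposited RPKM values are the authors' and scale reads by length and library size. The authors' test table holds TMM-scaled CPM, fold changes (a ratio), mean log2 CPM and p-values, per the file headers. Percent of reads by region and RNA integrity, a score, come from other deposited sheets.

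The tests ran in edgeR 4.0.16 under R 4.3.3. filterByExpr kept 11711 of 17378 genes. A likelihood-ratio test after TMM scaling, with a dispersion per gene and Benjamini-Hochberg adjustment over all tested genes gave the main result, as the design text names it, and the quasi-likelihood test stands beside it. SE comes from the pooled spread of log2 CPM (prior count 2) within groups, not the edgeR coefficient's error. DESeq2 1.42.0 and limma 3.58.1 were alternatives. The gene tests and the pairing test were tested on simulated data. The members, classes and lists were chosen with earlier results of these data known. Named with every library were the chains of the main trimers, the 4 tested chains with the smallest p in each direction and the 4 with the highest dispersion. From each pathway and marker list the gene with the smallest p in each direction was named. No source used here states strand, so overlapping genes may share reads. All 32 symbols equal RefSeq symbols (GRCr8), a build other than the authors', so no coordinates are given. A few genes that these rules name, and 1 of the 16 relations of Col1a1, are not reported here, though they stay in the counts, sums and adjustments.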

Additional observations from a re-analysis of the deposited data

Results flagged for a closer look

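The gap between the most extreme library of a group and its neighbour was tested for the 30 tested chains and 3 class values. This marked 5 of 66 groups, where chance gives about 1 in 20, or 3.30. In MI 5, Col18a1 was high at 60.42 CPM against 38.27 to 43.51 CPM in the other MI rats, and Col9a1 was high at 2.20 CPM against 1.126 to 1.414 CPM. In Sham 2, Col11a2 was high at 17.08 CPM against 9.239 to 10.15 CPM in the other sham rats. Also in Sham 2, Col14a1 was low at 109.9 CPM against 133.6 to 135.6 CPM, and Col4a4 was low at 1.581 CPM against 2.212 to 2.316 CPM. Col9a1 and Col4a4 had mean counts of 10.1 and 11.9, so counting noise alone amounts to 31.4% and 29.0% of the mean.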

How the results depend on the processing

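The fit with a fixed dispersion of 0.006 was chosen after seeing the data. The 2 genes called over all tested genes became 0 in the edgeR quasi-likelihood test (602 genes at an unadjusted p under 0.05), limma-voom and both RPKM fits, 6 with no filter, 12 with the replicate block, 70 with 1 common dispersion and 71 with the dispersion of 0.006, and 2 to 8 in fits without 1 library. The 0 chains called became 2 (Col1a1 and Col11a1) with 1 common dispersion or 0.006, and 0 to 2 without 1 library. With the replicate block 1 chain, Col15a1, was called (log2 -0.41, edgeR adjusted p = 0.00296), where 0.102% of all genes were and 0.0598% were lower. MI 5 has no sham partner and adds nothing to that fit. Same-numbered libraries share only a number, with correlations of their deviations from -0.14 to 0.09. Over all alternatives the fibrillar median ranged from -0.34 with the replicate block to -0.09 without MI 1, against -0.19 in the main fit. The basement membrane median ranged from -0.11 to -0.03, against -0.07. These moves were smaller than the within-group SD of the class scores between libraries, 0.23 for fibrillar and 0.11 for basement membrane chains. That SD describes single libraries and is not the error of a difference between groups. Of 294 refitted values of 14 named chains, 12 changed sign, none past the threshold, and 5 passed that had not. Col6a2 gave -0.088 with the replicate block, Lama5 -0.045. Without 1 library the ranges were -0.078 to 0.17 for Col6a2, -0.044 to 0.12 for Lama5, -0.066 to 0.073 for Lamb2, -0.33 to 0.11 for Col13a1 and -0.011 to 0.078 for Lama4. The cause was not tested. Chains with mean counts near 10 are limited by depth.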

Other observations

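The RPKM ratio of Col1a1 to Col1a2, the chains of the collagen I heterotrimer, was 0.799, 0.893, 0.952, 0.932 and 1.14 in MI 1 to 5 and 0.982, 0.973, 0.962 and 1.03 in Sham 1 to 4. MI 1 had the lowest ratio and MI 5 the highest. The library values of Col1a1 ranged 2.64-fold against 2.15-fold for Col1a2. The ratio of Lamb2 to Lamc1, chains that can join the same laminin trimer, was 1.17, 1.35, 1.19, 0.933 and 1.02 in MI 1 to 5 and 1.09, 1.01, 1.09 and 1.07 in Sham 1 to 4. MI 2 was highest and MI 4 lowest, with the sham rats between them.

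Col3a1 and Col5a2 neighbour each other, as do Col4a3 and Col4a4, in the RefSeq table (assembly GRCr8). Over the 9 libraries, log2 CPM of Col3a1 and Col5a2 had r 0.94 and that of Col4a3 and Col4a4 0.28. Libraries and depth are shared within each pair, and the low counts of Col4a3 and Col4a4 limit the second value.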
